A study of Mus musculus with 6 samples.

Results

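Transcripts of the mitochondrial respiratory chain were examined in primary mouse dermal fibroblasts, cells grown out of skin, after exposure to 5-aza-2'-deoxycytidine. The members are the genes whose symbols carry the standard names of subunits of the 5 respiratory complexes: Nduf followed by A, B, C, S or V for complex I, Sdha to Sdhd for complex II, Uqcr for complex III, Cox4 to Cox8 for complex IV, and Atp5 for the ATP synthase, which is often called complex V. They were found by symbol in the annotation of the array, without use of measured values, and a probe set counted when it named 1 gene. This gave 164 probe sets for 81 genes of the 18193 genes so named: 35 of complex I, 4 of complex II, 8 of complex III, 17 of complex IV and 17 of the ATP synthase. All 81 symbols matched an entry among the RefSeq mouse genes used here.

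The respiratory chain sits in the inner membrane of the mitochondrion. Complexes I and II pass electrons from NADH and succinate to coenzyme Q, complex III passes them on to cytochrome c, complex IV hands them to oxygen, and the ATP synthase uses the proton gradient that complexes I, III and IV build. Most subunits are made from nuclear genes and imported, and a small number are made from mitochondrial DNA. The compound replaces cytidine in newly made DNA and binds the enzymes that methylate it, which lowers methylation in dividing cells.

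There were 6 cultures with 1 Affymetrix expression array each. The 3 treated cultures received the compound at 5 µM in growth medium for 96 h, renewed every 24 h, followed by 24 h in plain medium, and the 3 control cultures were untreated. All were strain B6, of mixed sex, taken from the dermis of pups aged 0 to 2 days and used at passage 4, with cells explanted separately for each biological replicate. How many animals went into a culture is not stated. Replicate numbers recur in both groups, but the sources used here do not say that equal numbers share an explant.

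Values are MAS5 signals, brought to a common trimmed mean of 193.2 units. A log2 change is treated minus control on log2(signal + 9.66), with its standard error (SE), and a gene was called when the limma p-value, adjusted over all tested probe sets, was under 0.05. Arrays correlated at 0.972 to 0.974 within groups and at 0.863 to 0.883 across groups. Before scaling, trimmed means ranged from 149.2 on the array of treated culture 1 to 223.9 on that of control culture 1. The ratio of 3' to 5' signal of Actb, which depends on RNA quality, was 1.255 to 1.275 in control and 1.141 to 1.179 in treated arrays, and that of Gapdh was 0.721 to 0.751 and 0.747 to 0.792. All 10 fibroblast markers lay above the array median in every control, and 9 did in every treated array, but their summed signal was 55700 to 61930 in control and 30520 to 36650 in treated arrays, with 8 of 10 lower. Summed markers of striated muscle were 1076 to 1362 in control and 5291 to 5754 in treated arrays, in treated arrays mostly from Acta1. Acta1, Des and Actc1, 3 of 11 muscle markers, were called higher, by 3.05, 0.99 and 0.915, while Myod1, Myog, Myh3 and Myh8 stayed below the limit for testing. Keratinocyte markers summed to 212.2 to 307.8 and 420.7 to 483.4, with Ivl called and Krt14 and Krt1 not tested. Leukocyte markers summed to 470.3 to 490.2 and 537 to 725. The part of these shifts in the results below was not tested, and in bulk RNA fewer cells of a type and less RNA per cell cannot be told apart.

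Of the 81 genes, 77 were tested, because at least 1 of their probe sets exceeded the array median on at least 3 of 6 arrays. The 4 others had low signals in both groups: Cox7a1, Cox8b and Ndufb4, each with 1 probe set, and Cox7c with 2. The signals of Cox7a1, the form of its subunit known from heart and muscle, were 30.0, 32.9 and 59.0 in controls and 29.5, 41.6 and 58.0 in treated arrays. Cox8b, another muscle form, gave 13.1, 30.5 and 10.5 against 25.9, 12.2 and 9.32. These values overlap between groups, and no detection calls were at hand to say whether they exceed background. Among the tested genes, 74 lay above the median on all 6 arrays; Cox7b2 passed through the treated arrays alone and Ndufa4l2 through the controls alone, so each of these had to differ, and Cox4i2 passed on 5 arrays.

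Across the chain, 24 of 77 genes rose (31.2%), 9 fell (11.7%) and 44 were not called, and most changes were small. Among all 12194 genes tested, 19.5% were called higher and 21.6% lower. The median change of the 77 was 0.11, against -0.003 over all genes. Signals did not overlap between groups for 31 members that were higher and 10 that were lower, against 25.1% and 27.4% of all genes. Most members gave strong signals, and genes with strong signals shifted upwards here as a class. Of the 682 genes whose mean signal was at least that of the median member, members included, 37.2% rose and 16.6% fell, with a median change of 0.132. The share of members that rose was thus near that of other genes with strong signals, and nothing particular to the chain as a whole is read from it. Without scaling the arrays, 3 members were called higher and 2 lower, and with quantile normalization 19 and 15. The count of higher calls was 16 without control culture 2 or treated culture 1, and the count of lower calls was 4 without control culture 1 and 5 without treated culture 2 or 3. These fits tested 76 members. Ndufa4l2 did not pass the limit when a control array was left out, nor Cox7b2 when a treated array was.

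The counts differed by complex. In complexes III and IV 11 of 22 genes rose (50%) and none fell, with a median change of 0.253. In complexes I and II and the ATP synthase, 13 of 55 genes rose (23.6%), 9 fell (16.4%) and the median was -0.01. Cox7b2 is among the 11 and Ndufa4l2 among the 9. Both had to differ, as each passed the limit for testing in 1 group alone. Of all genes 19.5% rose and 21.6% fell, and of genes with strong signals 37.2% and 16.6%. By limma's test, no member of complex III or IV was called lower in any of the 16 alternative settings either. The higher calls depended on the scaling of the arrays. Without it, 2 genes of complex III, Uqcrc1 and Uqcr11, and 1 of complex IV, Cox7b2, were called higher. The difference between complexes was not tested, since the genes of a complex are not replicates.

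**Figure D1:**
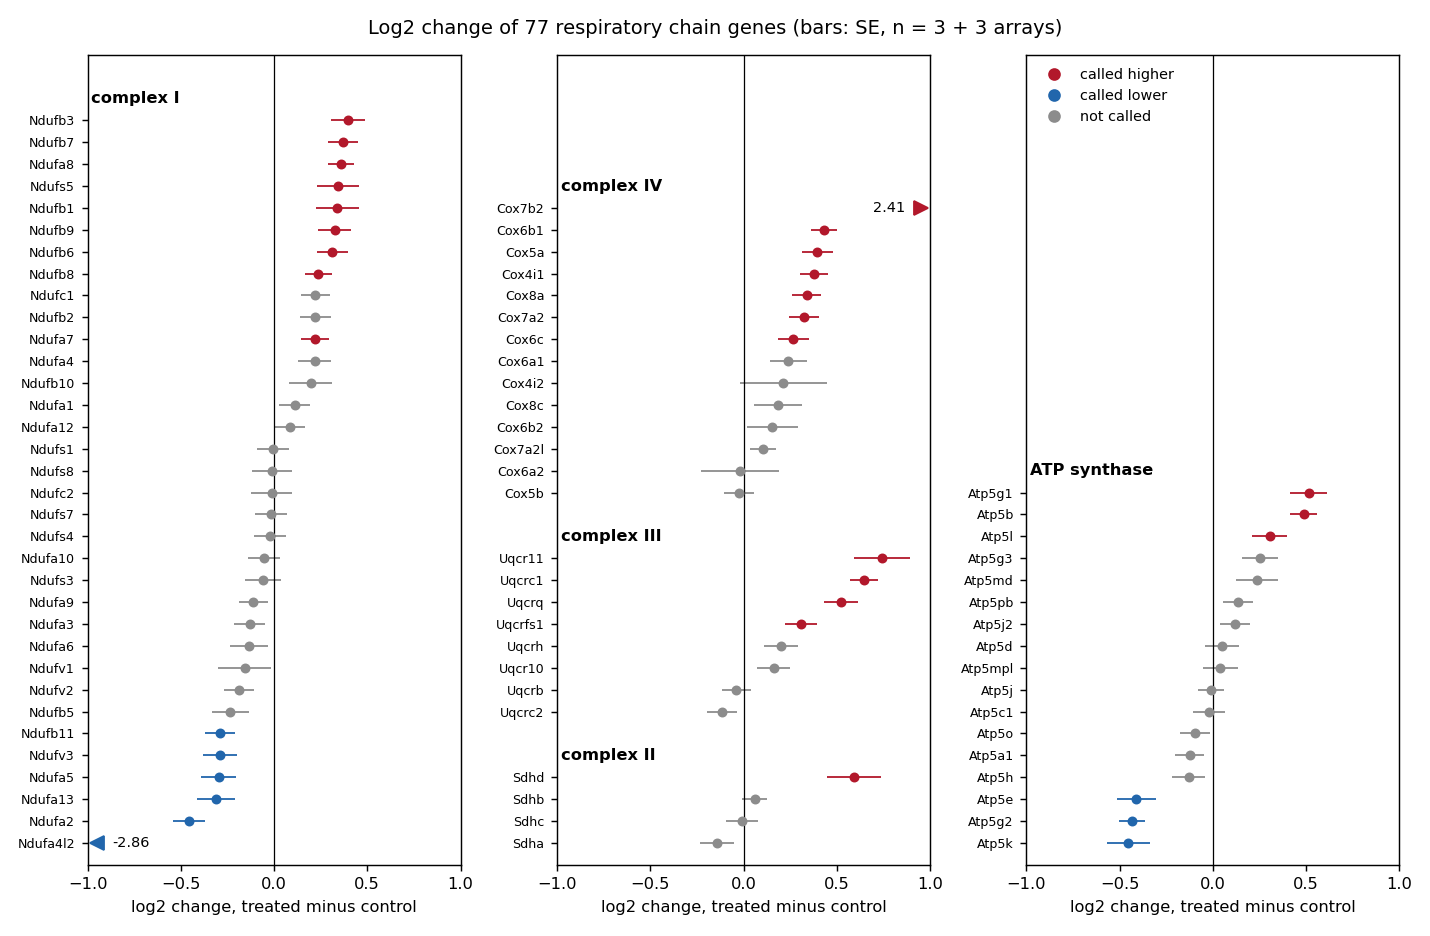
Log2 change of the 77 tested genes by complex, treated minus control, with bars for the standard error and 3 arrays a group; red points were called higher, blue points lower, grey points not called. Ndufa4l2 at -2.86 and Cox7b2 at 2.41 lie beyond the axis and are drawn as arrows, and complexes III and IV hold no blue point.

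The same signals were also viewed array by array, which is not separate evidence. Each gene's log2 signal was set against its mean over the controls, and the median over a complex was taken on each array. For complex III these medians were 0.009, 0.017 and 0.040 in controls and 0.354, 0.284 and 0.141 in treated cultures 1, 2 and 3. For complex IV they were 0.010, 0.006 and 0.007 against 0.427, 0.198 and 0.297. The groups did not overlap in either complex, but the control medians lie near the reference because the controls set it. Complex I gave 0.074, -0.027 and -0.020 in controls and 0.085, 0.034 and -0.074 in treated arrays, and the ATP synthase gave -0.002, -0.038 and 0.002 against 0.126, 0.028 and -0.013, so in both the groups overlapped. Genes with signals as strong as the median member gave -0.034, -0.015 and 0.054 against 0.206, 0.078 and 0.123. Treated culture 1, whose array had the lowest trimmed mean before scaling, was the highest of the 3 treated arrays for 60 of 77 members, and without it the median change was 0.204 for complex III and 0.192 for complex IV.

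**Figure D2:**
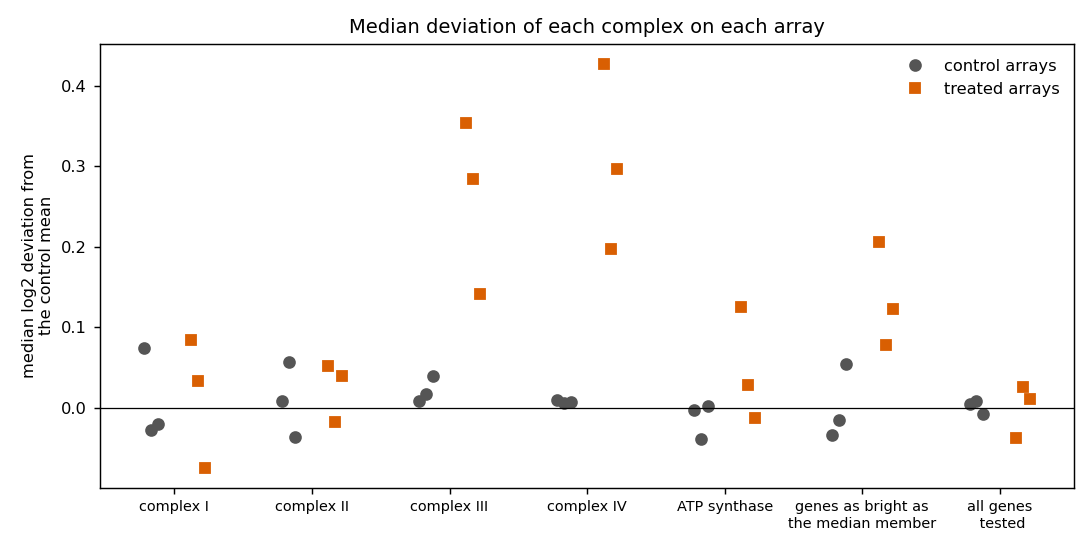
Median log2 deviation from the control mean on each array, for the tested genes of each complex, for the 682 genes with signals as strong as the median member, and for all 12194 genes; circles are the 3 control arrays and squares the 3 treated arrays, in the order of their replicate numbers. The treated squares lie above all control circles in complexes III and IV and among the genes with strong signals, and mix with them in complexes I and II and the ATP synthase.

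Complex III, the cytochrome bc1 complex, showed 4 of 8 genes higher and none lower, with a median change of 0.254. Uqcrc1, which encodes core protein 1 of the complex, gave signals of 1415, 1483 and 1315 in controls and 2248, 2179 and 2172 in treated cultures. All treated values lay above all controls, and the means were 1404 ± 84.6 and 2200 ± 41.8 (SD, n = 3 each), a change of 0.65 (SE 0.0758, limma adjusted p = 0.000144). Uqcr11, a small accessory subunit, gave 1008, 886.4 and 638.1 against 1502, 1348 and 1338. Control culture 3 was the lowest and the groups did not overlap, and the gene rose by 0.74 (SE 0.149, limma adjusted p = 0.00348). Both calls held when any 1 array was left out.

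The regions around the start sites of these genes are shown because both hold letters of the NRF1 motif. NRF1 is a transcription factor known for driving respiratory chain genes. They were picked for this match. Of the 5 complex III windows at hand, 2 held the NRF1 letters, and that of Uqcrfs1, which also rose, held neither these nor the ETS letters. Whether a match has a part in the changes was not tested. The sequences are RefSeq's on GRCm38.p6, from 250 bases before to 50 bases after the start, 5′ to 3′ on the strand of the gene. The Uqcrc1 window is chr9:108936398-108936697 (plus strand) and the Uqcr11 window is chr10:80406772-80407071 (minus strand). Capitals mark matches, on either strand, to the NRF1 motif GCGCANGCG and the ETS motif CCGGAAG, the core bound by the GABP factor.
Uqcrc1: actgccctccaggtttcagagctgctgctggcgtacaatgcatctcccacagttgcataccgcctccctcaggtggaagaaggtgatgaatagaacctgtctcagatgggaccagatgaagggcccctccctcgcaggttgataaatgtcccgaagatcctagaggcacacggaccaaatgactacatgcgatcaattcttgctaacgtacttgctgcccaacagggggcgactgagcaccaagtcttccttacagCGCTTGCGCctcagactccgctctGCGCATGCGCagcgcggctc
Uqcr11: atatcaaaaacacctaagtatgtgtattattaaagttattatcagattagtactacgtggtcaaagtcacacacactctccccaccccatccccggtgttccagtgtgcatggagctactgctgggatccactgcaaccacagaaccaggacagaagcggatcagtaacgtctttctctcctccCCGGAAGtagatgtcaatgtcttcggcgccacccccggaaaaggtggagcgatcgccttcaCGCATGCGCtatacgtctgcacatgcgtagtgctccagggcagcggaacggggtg
Positions count from the start site as base 0. In Uqcrc1 the NRF1 matches all lie downstream of the start, at bases 6 to 14 and, overlapping each other on opposite strands, at 30 to 38 and 31 to 39. In Uqcr11 the NRF1 match spans the start itself, from base -5 to base 3, and the ETS match lies from -66 to -60.

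Uqcrq, a subunit next to the coenzyme Q site, gave 1618, 1522 and 1654 in controls and 2560, 2068 and 2304 in treated cultures, a rise of 0.525 (SE 0.0915, limma adjusted p = 0.00156). The groups of its strongest probe set were well apart, but this probe set is of a class that can match more than 1 transcript, and 2 dimmer probe sets of the gene changed by 0.25 and -0.19 without a call. Uqcrfs1, the Rieske iron-sulfur protein that takes the first electron from coenzyme Q, gave 1469, 1324 and 1481 against 1839, 1825 and 1634, a rise of 0.31 (SE 0.0841, limma adjusted p = 0.0166). Its call was lost without control culture 2 (adjusted p = 0.0638), treated culture 1 (0.0592) or treated culture 2 (0.0596). When probe sets of the classes that can match several transcripts were left out, 2 of 6 genes of complex III were higher, and Uqcrq was represented by the dim probe set at -0.19.

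The other members of complex III were not called. Uqcrh, the hinge protein that helps cytochrome c dock, gave 2852, 2692 and 2993 against 3600, 3293 and 2944, with a change of 0.20 (adjusted p = 0.11). Uqcr10, a small subunit, gave 1339, 1417 and 1404 against 1741, 1458 and 1470, so that its groups did not overlap, and changed by 0.16 (adjusted p = 0.189). Uqcrc2, core protein 2 and the partner of Uqcrc1, stood apart from it in value. Its signals were 1773, 1914 and 2060 in controls and 1833, 1789 and 1676 in treated cultures, a change of -0.12 (SE 0.0825, adjusted p = 0.311). Uqcrb, which binds coenzyme Q, gave 7092, 7801 and 7666 against 7880, 6959 and 7125, a change of -0.04. The groups overlapped in Uqcrh, Uqcrc2 and Uqcrb.

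**Figure D3:**
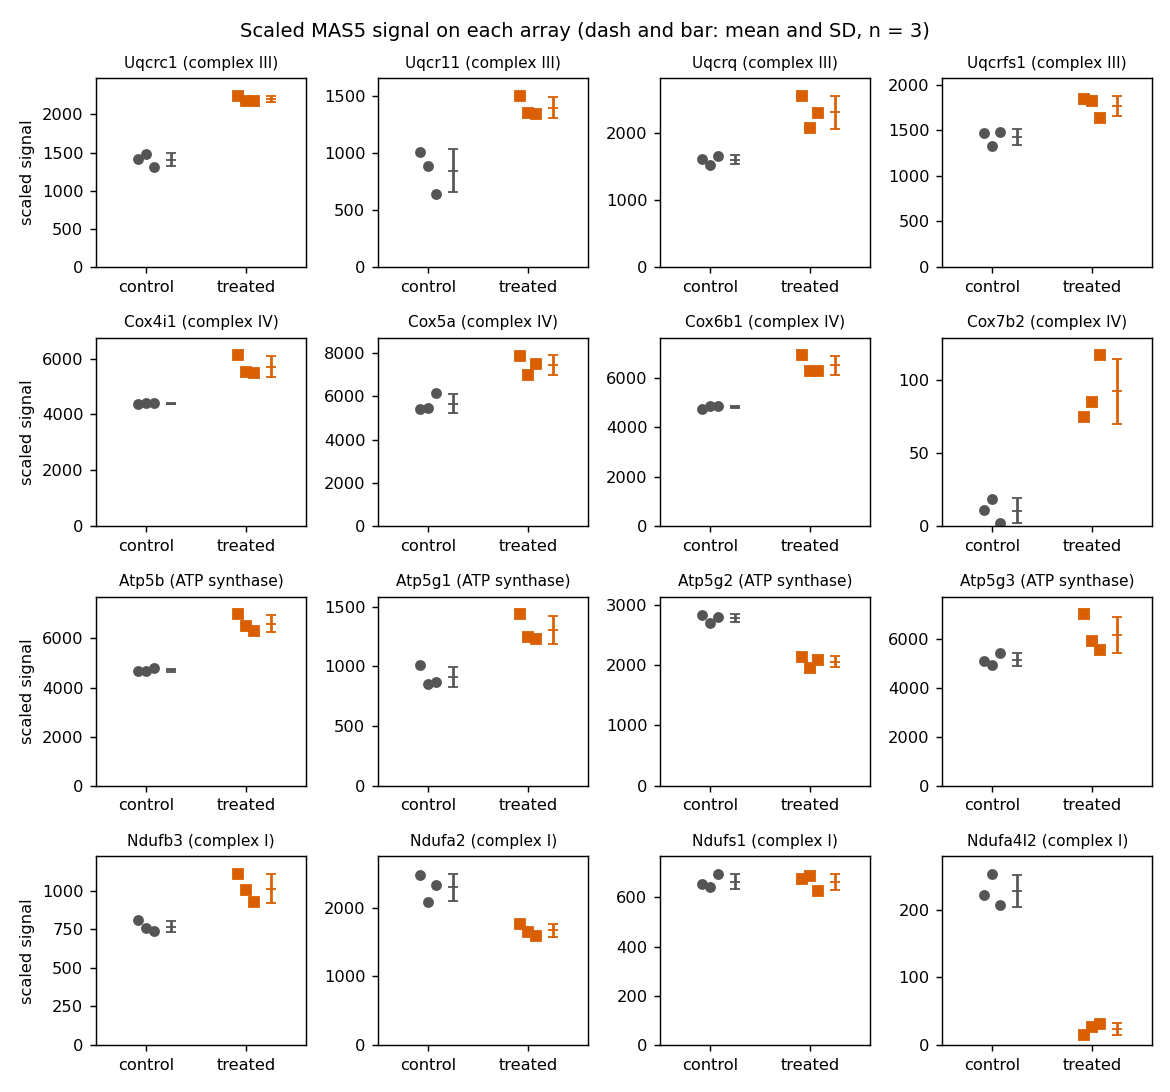
Scaled MAS5 signal of 16 members on each array, with circles for controls, squares for treated cultures, in the order of their replicate numbers, and dashes with bars for the mean and SD of 3 arrays; every axis starts at 0 and has its own scale. Treated squares lie above all controls for the complex III and IV genes, Atp5b, Atp5g1, Atp5g3 and Ndufb3, below them for Atp5g2, Ndufa2 and Ndufa4l2, and among them for Ndufs1.

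Complex IV, cytochrome c oxidase, had 7 of 14 tested genes higher and none lower, with a median change of 0.253. Of these 7, 6 are the forms used in most tissues, and the other is Cox7b2, which had to differ. None of the 6 was called without scaling. Cox6b1, which faces the space between the membranes, gave 4749, 4837 and 4836 in controls and 6917, 6286 and 6269 in treated cultures, means of 4807 ± 50.5 and 6490 ± 369 (SD, n = 3), and rose by 0.43 (SE 0.0715, limma adjusted p = 0.00117). Cox5a gave 5394, 5446 and 6150 against 7884, 6970 and 7508 and rose by 0.40 (SE 0.0828, adjusted p = 0.00424). Cox4i1, the main form of the regulatory subunit 4, gave 4359, 4393 and 4405 against 6132, 5516 and 5487 and rose by 0.38 (SE 0.073, adjusted p = 0.00276). In these genes no treated value fell within the range of the controls, and treated culture 1 was the highest.

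The remaining common forms moved less. Cox8a gave 1428, 1432 and 1332 against 1899, 1712 and 1700 and rose by 0.34 (SE 0.0792, adjusted p = 0.00776). Cox7a2 gave 4622, 4720 and 4942 against 6460, 5540 and 5914 and rose by 0.32 (SE 0.0791, adjusted p = 0.00961). Cox6c rose by 0.27 (SE 0.0828, adjusted p = 0.0298), but its call was lost without control culture 1, 2 or 3 or treated culture 1, with adjusted p between 0.0575 and 0.10. Cox6a1 gave 6351, 6579 and 7007 against 9078, 7460 and 7125 and was not called at this probe set (0.24, adjusted p = 0.084), while its other probe set rose by 0.48. Cox5b, a zinc-binding subunit of the matrix side, changed by -0.02 and Cox7a2l, a factor that joins complexes III and IV into supercomplexes, by 0.11, both without a call.

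Several subunits of complex IV exist in forms bound to a tissue, and most of these had low signals. Cox4i2, the form of subunit 4 known from lung and low oxygen, gave 79.2, 71.8 and 52.6 in controls and 61.4, 92.0 and 87.5 in treated cultures. Cox6a2, the heart and muscle form of subunit 6a, gave 155.3, 149.2 and 98.2 against 108.4, 127.2 and 158.6. Cox6b2, a testis form, gave 144.8, 170.4 and 135.9 against 176.6, 167.8 and 158.9. Cox8c, also known from testis, gave 351.7, 339 and 360.5 against 400.3, 337 and 472.2. The groups overlapped in all 4 of these and none was called, with changes of 0.21, -0.02, 0.15 and 0.19.

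Cox7b2 differed from the other tissue forms. It is a paralogue of Cox7b known mainly from testis, and its signals were 10.8, 19.0 and 1.93 in controls and 74.6, 85.2 and 117.4 in treated cultures. Every control lay below the median of its array, every treated value above it. The log2 change was 2.41 (SE 0.406), the highest of the 77 members. Since the gene was tested only because its treated signals were high, its call and its stability are not given as support. Because the control signals were close to the added 9.66 units, the log2 change understates the ratio of signals. Its start region, chr5:71548156-71548455 on the minus strand of GRCm38.p6, is shown because the gene is the member that was low in all controls and measured in all treated cultures. Capitals mark its single match to the SP1 motif GGGCGG, at bases -72 to -67.
Cox7b2: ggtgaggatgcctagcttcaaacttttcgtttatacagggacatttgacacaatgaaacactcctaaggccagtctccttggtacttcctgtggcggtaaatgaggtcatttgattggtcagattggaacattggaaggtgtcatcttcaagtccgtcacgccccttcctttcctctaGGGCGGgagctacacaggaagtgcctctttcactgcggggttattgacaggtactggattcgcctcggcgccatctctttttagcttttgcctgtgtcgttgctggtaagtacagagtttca
The window held 10 CpG dinucleotides, a ratio of observed to expected CpG of 0.564. The median of this ratio was 0.795 over the windows of all members with an entry and 0.384 over all 32851 windows of the table.

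The ATP synthase had 3 of 17 genes higher and 3 lower, 17.6% each. Of all genes 19.5% rose and 21.6% fell, and of genes with strong signals 37.2% and 16.6%. The lower ones include Atp5k, whose probe sets disagreed, as given below. Atp5b, the catalytic beta subunit of the F1 head, gave 4681, 4661 and 4778 in controls and 6988, 6514 and 6298 in treated cultures. The means were 4707 ± 62.9 and 6600 ± 353 (SD, n = 3), and the gene rose by 0.49 (SE 0.071, limma adjusted p = 0.000548). Its partner in the head, the alpha subunit gene Atp5a1, gave 3329, 3338 and 3104 against 3133, 2744 and 3093, a change of -0.12 (SE 0.0796, adjusted p = 0.254), and 1 dimmer probe set of Atp5a1 was called lower at -0.30. Atp5e, the epsilon subunit of the central stalk, fell by 0.41 (SE 0.105, adjusted p = 0.0122), from 1380, 1090 and 1229 to 979.8, 838 and 948.9. The gamma and delta genes, Atp5c1 and Atp5d, changed by -0.02 and 0.05 with overlapping groups. Within the 5 genes of F1, then, 1 rose, 1 fell and 3 were not called.

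The 3 genes for subunit c of the membrane ring, which encode the same mature protein behind different import signals, went separate ways. Atp5g1 gave 1011, 853.9 and 865.9 in controls and 1437, 1243 and 1231 in treated cultures and rose by 0.51 (SE 0.0989, limma adjusted p = 0.0027). Atp5g2 gave 2833, 2703 and 2794 against 2130, 1949 and 2082 and fell by 0.43 (SE 0.0719, adjusted p = 0.00115). Atp5g3 gave 5101, 4903 and 5413 against 6995, 5897 and 5552, a change of 0.25 that was not called (SE 0.0954, adjusted p = 0.0631). The groups did not overlap in any of the 3 genes, and the calls of Atp5g1 and Atp5g2 held without any 1 array. The signals of different probe sets are not on a common scale, so the sum over the 3 genes was not formed.

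The start regions of Atp5b and Atp5g2 are shown as the strongest member that rose and the strongest that fell, by adjusted p, among the ATP synthase genes. They lie at chr10:128083057-128083356 (plus strand) and chr15:102670998-102671297 (minus strand) of GRCm38.p6, and capitals mark matches to the NRF1 motif GCGCANGCG and the SP1 motif GGGCGG.
Atp5b: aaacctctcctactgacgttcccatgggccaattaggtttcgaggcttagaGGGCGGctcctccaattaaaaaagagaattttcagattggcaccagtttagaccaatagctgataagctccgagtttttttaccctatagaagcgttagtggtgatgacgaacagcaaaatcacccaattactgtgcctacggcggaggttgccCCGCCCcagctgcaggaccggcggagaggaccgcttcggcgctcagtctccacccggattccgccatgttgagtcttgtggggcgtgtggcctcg
Atp5g2: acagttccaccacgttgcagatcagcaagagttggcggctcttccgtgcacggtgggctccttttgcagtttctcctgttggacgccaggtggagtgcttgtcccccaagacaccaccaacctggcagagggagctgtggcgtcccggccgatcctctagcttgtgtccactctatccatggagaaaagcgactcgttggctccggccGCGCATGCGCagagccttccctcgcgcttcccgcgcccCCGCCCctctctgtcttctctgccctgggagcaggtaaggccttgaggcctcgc
Atp5b held SP1 matches at bases -199 to -194 and -45 to -40 and no match to the NRF1 letters, while Atp5g2, which fell, held overlapping NRF1 matches from -42 to -33 and an SP1 match from -4 to 1. An NRF1 match was thus present in members that rose and in a member that fell.

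Among the small subunits of the membrane part and the outer stalk, Atp5l (subunit g) rose by 0.30 (SE 0.0924, limma adjusted p = 0.0269), from 2329, 2070 and 2230 to 3061, 2508 and 2642. Its call was lost without control culture 2 (adjusted p = 0.0944), control culture 3 (0.054) or treated culture 1 (0.0838). Atp5k (subunit e) was called lower by 0.455 at its strongest probe set (SE 0.115, adjusted p = 0.0117), with 2569, 2890 and 2400 against 2247, 1701 and 1803. A dimmer probe set of the same gene was called higher, by 0.32 (adjusted p = 0.0312), and the third was not called. No direction is thus given for Atp5k, although the counts of lower calls hold it through its strongest probe set. Without control culture 1 that probe set lost its call (-0.27, adjusted p = 0.137). Atp5md and Atp5pb gave 0.24 and 0.14, Atp5h, Atp5o and Atp5j gave -0.13, -0.10 and -0.01, and Atp5j2 and Atp5mpl gave 0.12 and 0.04, none of them called. A dim probe set of Atp5j2 was called higher at 0.63 (adjusted p = 0.0234).

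Complex I, NADH dehydrogenase, had 9 of 34 genes higher (26.5%) and 6 lower (17.6%), with Ndufa4l2, which had to differ, among the lower. The shares were 19.5% and 21.6% among all genes, and 37.2% and 16.6% among genes with strong signals. The median change of complex I was -0.01. The 6 core subunits measured under these names were Ndufs1, Ndufs3, Ndufs7, Ndufs8, Ndufv1 and Ndufv2, most of which carry the flavin or iron-sulfur clusters. All 6 were uncalled, with changes from -0.19 to -0.005. The core subunit ND5, made from mitochondrial DNA and outside these names, was called higher at 0.54, as given below. Ndufs1, the largest subunit, gave 656, 641.2 and 696.7 in controls and 675.3, 686.2 and 626 in treated cultures, which overlap throughout. Ndufv2, which holds an iron-sulfur cluster of the NADH-binding arm, had the largest change of the 6, at -0.19 (SE 0.0785, limma adjusted p = 0.0884), with 2565, 2319 and 2288 against 2206, 2055 and 2028. The calls among complex I names were thus all outside the core, in accessory subunits, which surround it and serve its assembly and stability, and in Ndufa4l2, whose place in the complex is not settled.

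Subunits named Ndufb, which sit in the membrane arm, were mostly higher: 6 of 10 rose (60%), 1 fell (10%) and the median change was 0.274. The shares of all genes were 19.5% and 21.6%, and those of genes with strong signals 37.2% and 16.6%. Ndufb3 gave 809.1, 756.6 and 738.9 in controls and 1113, 1006 and 927.2 in treated cultures and rose by 0.40 (SE 0.092, limma adjusted p = 0.00749). Ndufb7 gave 1054, 1048 and 1086 against 1287, 1368 and 1482 and rose by 0.37 (SE 0.0807, adjusted p = 0.00529). Ndufb1, Ndufb9, Ndufb6 and Ndufb8 rose by 0.34, 0.33, 0.31 and 0.24, with adjusted p between 0.0149 and 0.0421. Ndufb11 fell at all 3 of its tested probe sets by 0.29 to 0.45, with signals of 2499, 2316 and 2392 against 2130, 1935 and 1840 at the strongest. Ndufb5 changed by -0.235 without a call at its strongest probe set (adjusted p = 0.0926) and fell by 0.26 at its other one (adjusted p = 0.0363). The call of Ndufb1 was lost without any 1 of the 6 arrays (adjusted p up to 0.125), that of Ndufb8 without control culture 2 or 3 or treated culture 1 or 3 (up to 0.0877), that of Ndufb11 without treated culture 2 or 3 (up to 0.0689), that of Ndufb6 without control culture 2 (0.0615) and that of Ndufb9 without treated culture 3 (0.0603). The medians of the Ndufb genes were 0.070, -0.024 and -0.046 in control arrays and 0.282, 0.219 and 0.258 in treated arrays, without overlap.

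Subunits named Ndufa, spread over both arms, were called in both directions, 2 of 13 higher (15.4%) and 4 lower (30.8%). All genes gave 19.5% and 21.6%, and genes with strong signals 37.2% and 16.6%. The lower Ndufa calls include Ndufa4l2, which had to differ. The median change of the Ndufa genes was -0.11. Ndufa8 gave 1892, 1981 and 1903 in controls and 2563, 2414 and 2432 in treated cultures and rose by 0.36 (SE 0.0702, limma adjusted p = 0.00304). Ndufa7 rose by 0.22 (adjusted p = 0.0432), and 2 of its 4 other tested probe sets were called higher as well. Ndufa2, a small subunit of the arm that extends into the matrix, gave 2475, 2080 and 2333 against 1766, 1649 and 1587 and fell by 0.46 (SE 0.0874, adjusted p = 0.00263). Ndufa13, also known as GRIM-19, fell by 0.31 (SE 0.101, adjusted p = 0.0348), from 3418, 3452 and 3451 to 3175, 2385 and 2797. Ndufa5 fell by 0.30 (adjusted p = 0.0321) and Ndufv3 by 0.29 (adjusted p = 0.0297). Ndufs5, which is joined to the membrane arm, rose by 0.34 (adjusted p = 0.037). Of the 6 fits that left out 1 array, 5 lost the calls of Ndufa7, Ndufa13 and Ndufa5, with adjusted p up to 0.137, 0.109 and 0.115, and 4 lost those of Ndufv3 and Ndufs5, with adjusted p up to 0.109 and 0.132. Ndufa13 lost its call without any array but that of treated culture 1, Ndufa5 without any but control culture 2, Ndufa7 without any but control culture 3, Ndufv3 without any but control culture 3 or treated culture 1, and Ndufs5 without any but control culture 1 or treated culture 3.

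Ndufa4l2 had the largest change of all members. It is a paralogue of Ndufa4 known to be induced by the factor HIF-1 in low oxygen, and its signals were 222.7, 253.7 and 207.2 in controls and 14.2, 26.1 and 31.2 in treated cultures. The groups were far apart, and every treated value lay below the median of its array. The log2 change was -2.86 (SE 0.237). Since the gene was tested only because its control signals were high, this too is a description and its call is not given as support. Ndufa4 itself, whose protein is now known to belong to cytochrome c oxidase although it is counted here by its name, gave 1653, 1598 and 1468 against 2013, 1715 and 1773; its groups did not overlap and its change of 0.22 was not called (adjusted p = 0.0788). Without Ndufa4l2 and Cox7b2, the 2 members measured above the median in 1 group alone, 23 of 75 members rose and 8 fell.

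Many of the smaller calls in complex I depended on single arrays. Of its 9 higher calls, those of Ndufa8, Ndufb3 and Ndufb7 held when any 1 array was left out, and of its 6 lower calls, Ndufa4l2 aside, that of Ndufa2. The count of higher calls in complex I was 4 without control culture 2, 5 without treated culture 1 or 3, 6 without control culture 3 or treated culture 2, and 9 without control culture 1. The count of lower calls was 2 without control culture 1 or treated culture 2 or 3, 3 without control culture 2 or 3, and 5 without treated culture 1. When a control array was left out, Ndufa4l2 no longer passed the limit for testing. In those fits its missing call is a gene not tested and not a call that failed.

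Complex II, succinate dehydrogenase, is also an enzyme of the citric acid cycle and builds no proton gradient. Its membrane anchor Sdhd gave 882.3, 1028 and 780.9 in controls and 1137, 1301 and 1661 in treated cultures and rose by 0.59 (SE 0.146, limma adjusted p = 0.00999). The treated values were widely spread but above every control, and a dimmer probe set changed by 0.17 without a call. The flavoprotein gene Sdha gave 1873, 2169 and 1886 against 1916, 1798 and 1655, a change of -0.14 (adjusted p = 0.254). The iron-sulfur gene Sdhb gave 2364, 2273 and 2297 against 2499, 2376 and 2350, a change of 0.06 (adjusted p = 0.551). The other anchor, Sdhc, gave 1117, 962.8 and 1030 against 1029, 981.3 and 1076, a change of -0.01 (adjusted p = 0.944). In these 3 genes the groups overlapped.

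Of the 77 genes, 42 had more than 1 tested probe set, and Atp5k was the one gene with calls in both directions. Among the 15 called genes with another tested probe set, 8 had another one called the same way. Cox5a rose at all 3 of its probe sets, by 0.40, 0.49 and 0.65. In other genes the strongest probe set was not called while a dimmer one was: Ndufa12 rose by 0.27 and 0.49 and Ndufc2 by 0.23 and 0.285 at dimmer probe sets, and Cox7a2l fell by 0.29 at one. Over all 143 tested probe sets of members, 40 were higher and 14 lower.

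**Figure D4:**
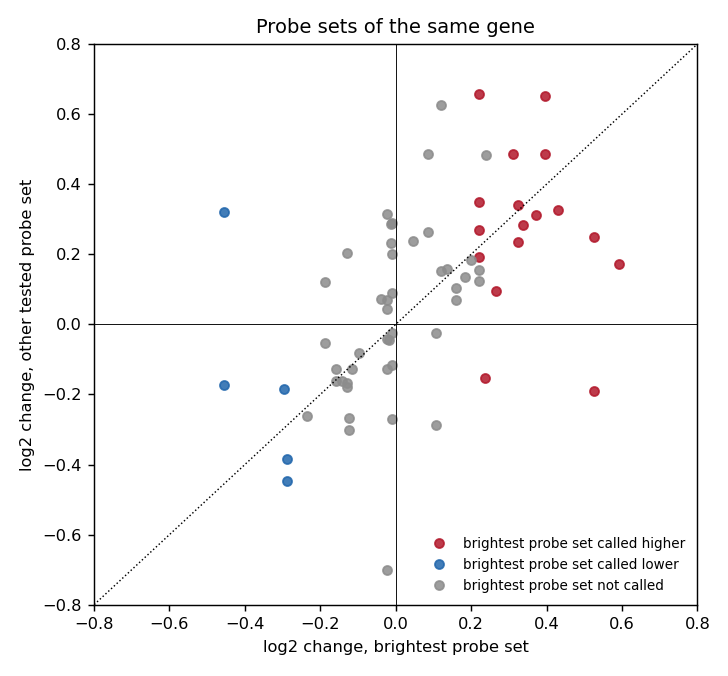
Log2 change at the strongest probe set of a gene (horizontal axis) against that at each of its other tested probe sets (vertical axis), for the 42 members with several; the dotted line marks equal change, and colours give the call of the strongest probe set. The blue point above 0 is the Atp5k probe set at 0.32, and the red points below 0 are dim probe sets of Uqcrq and Ndufb8.

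Further lists of mitochondrial and energy genes are set beside the 19.5% of all genes called higher and 21.6% called lower, and the 37.2% and 16.6% among genes with strong signals. Most of their counts depended on the scaling of the arrays, and counts without it follow each list. Of the subunits outside these names, 3 were on the array, and all 3 rose, with none called without scaling. The mitochondrial transcript ND5, a core subunit of complex I made from mitochondrial DNA, gave 3072, 3073 and 2901 in controls and 4024, 4644 and 4494 in treated cultures and rose by 0.54 (SE 0.0788, limma adjusted p = 0.000559). Ndufab1, an acyl carrier protein of complex I, rose by 0.56 (SE 0.093, adjusted p = 0.00119), and Cyc1, the cytochrome c1 of complex III, by 0.48 (SE 0.0802, adjusted p = 0.00121). Cytochrome c itself (Cycs), the soluble carrier between complexes III and IV, gave 3843, 3782 and 3816 against 8600, 7395 and 7756 and rose by 1.05 (SE 0.077, adjusted p = 7.71e-06). In the list of electron carriers and coenzyme Q genes, 7 of 16 rose and 3 fell (5 and 1 without scaling). Coq10b, Gpd2 and Coq7 rose by 0.97, 0.94 and 0.92, and Coq6, an enzyme of coenzyme Q synthesis, fell by 1.14.

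Assembly factors of the complexes were called in both directions, 11 higher (24.4%) and 8 lower (17.8%) of 45, with a median change of -0.02. These shares are near those of all genes, and without scaling the counts were 3 and 1. Cox17, a copper chaperone for complex IV, rose by 1.21, Tmem70, an ATP synthase factor, by 1.00, Cox19 by 0.78 and Cox18 by 0.575. Other factors for complex IV fell, among them Cox15, which makes its heme, by 0.54 and Cox16 by 0.44. Atpif1, the inhibitor of the ATP synthase, fell by 0.46.

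Genes of protein import, which bring these subunits into the mitochondrion, had 14 of 23 higher (60.9%), 1 lower and a median change of 0.454, and without scaling 8 were higher and none lower by limma's test. Timm17a, Timm8a1 and Timm9 rose by 1.14, 1.04 and 0.96 and the chaperonin Hspd1 by 0.68, while the import motor Hspa9 fell by 0.39. Among 76 mitochondrial ribosomal proteins, 24 rose (31.6%) and 7 fell (9.21%). Without scaling 2 were higher and 2 lower, and without treated culture 1 the count of higher calls was 14. Mrps23 and Mrpl12 rose by 0.77 and 0.65, and Mrpl23 and Mrpl24 fell by 0.73 each. Of 8 carriers and channels, 4 rose (1 without scaling) and none fell: the phosphate carrier Slc25a3 by 0.39, the ADP/ATP carrier Slc25a5 by 0.23, the channel Vdac2 by 0.44, and Slc25a31, the ADP/ATP carrier known from germ cells, by 2.31, from 14.1, 1.08 and 20.2 to 88.7, 84.1 and 91.6. Like Cox7b2, Slc25a31 lay above the array median in treated cultures alone, so it had to differ.

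Fuel pathways showed no common direction. Of 17 genes of the citric acid cycle and pyruvate dehydrogenase, 5 rose and 1 fell (2 and 1 without scaling): Idh3a rose by 1.05, Mdh2 by 0.61 and Pdhb by 0.43, and Idh2 fell by 1.89. In fatty acid oxidation 7 of 15 fell, among them Echs1 by 0.93, Cpt2 by 0.91 and Cpt1a by 0.65, and 2 rose; without scaling 4 fell and 0 rose. In glycolysis and lactate handling 6 of 20 rose and 5 fell (3 and 5 without scaling), where Pdk4 and Hk2 rose by 2.62 and 1.56, Pdk1 fell by 2.23 and Pfkl fell by 1.13, while Ldha changed by -0.12 without a call. Among 20 tested regulators of mitochondrial biogenesis and mitochondrial DNA, 3 rose and 5 fell (0 and 3 without scaling). Gabpa, the ETS factor of the GABP pair, fell by 0.59, and Esrra rose by 0.40, while Nrf1 and Tfam changed by 0.245 and -0.15 without a call. The probe sets of Ppargc1a, a coactivator of these factors, did not pass the limit for testing.

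**Figure D5:**
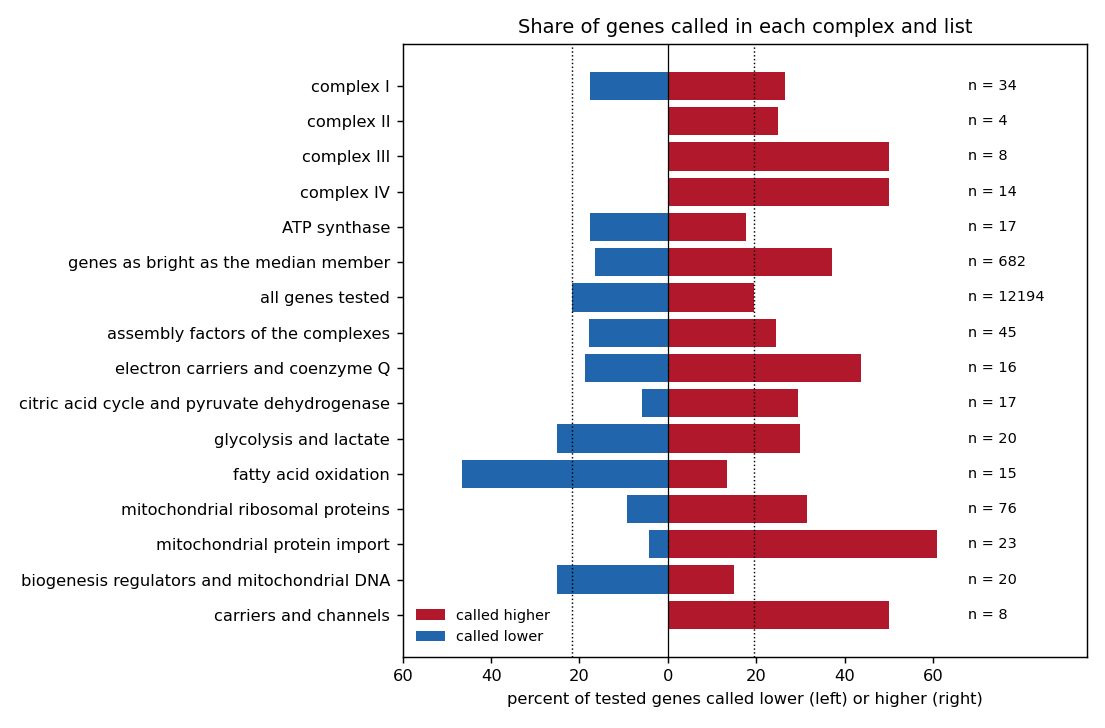
Percent of tested genes called higher (red, right) or lower (blue, left) in each complex, among the 682 genes with signals as strong as the median member, among all 12194 genes, and in each further list, with n giving the number of tested genes; dotted lines mark 19.5% and 21.6%, the shares of all genes. Complexes III and IV have no blue bar, and fatty acid oxidation has the longest one. The bars count Cox7b2, Ndufa4l2 and Slc25a31, which had to differ.

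Start regions of 66 member genes were in the RefSeq table, with 71 windows of 300 bases. The NRF1 letters were present in 26.8% of these windows against 6.25% of all 32851 windows, the ETS letters in 23.9% against 8.86%, the ERR motif AAGGTCA in 11.3% against 4.72%, the YY1 motif AAGATGGCG in 8.45% against 1.4%, and the SP1 letters in 40.8% against 35.7%. Both strands were searched, and matches of different motifs may overlap. The windows of members also had a higher ratio of observed to expected CpG than all windows, as given above, and its part in these shares was not tested. Split by call, the NRF1 letters were present in 6 of 20 genes that rose, 3 of 7 that fell and 8 of 35 of those not called, counting a gene with several windows once. The ETS letters were present in 7, 2 and 8 of these genes. With so few genes a group, these counts are given as a description, and a match is not evidence that a factor was bound.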

How the data were processed

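RNA came from a column-based kit and was labelled with biotin, per the labels' protocols. The authors deposited linear MAS5 signal intensities, and MAS5 is named by the submitters' processing notes. The sources used here give no version, target or detection calls.

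Each array was scaled to a 2% trimmed mean of 193.2, signals were transformed to log2(signal + 9.66), and probe sets above the array median on at least 3 of 6 arrays were kept (23388 of 45037). Groups were compared with limma 3.58.1 (lmFit, eBayes with trend, two-sided) in R 4.3.3, with Benjamini-Hochberg adjustment over all tested probe sets and a threshold of 0.05. The fit was tried on simulated signals with far fewer changed probe sets than were called here. That trial left out the scaling of arrays, so it cannot speak for the scaling. Each gene was followed through the strongest of its tested probe sets, by mean log2 signal. With 3 arrays a group, their number limits the precision, and p-values set the difference between groups against the spread between these cultures. Gene names are those of the platform annotation (34945 with 1 symbol, 932 with several, 9160 with none), and start regions are RefSeq's.

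The members and lists were chosen with earlier results of these data known. Arrays' signals are given for the most changed called genes of each complex, for isoform groups and for all Sdh and Uqcr genes. From each list, genes with the smallest p and a few regulators are given. The group of genes with strong signals was added after the data were seen, as were a few further members. The alternatives were no scaling, quantile normalization, other pseudocounts and filters, other rules for probe sets, no intensity trend, the replicate number as a block, and each array left out.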

Additional observations from a re-analysis of the deposited data

Results flagged for a closer look

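A signal appeared in a probe set that the comparisons above leave out because it names 2 genes. The probe set shared by Ndufa11, an accessory subunit of complex I, and its copy Ndufa11b gave 1698, 1466 and 1400 in controls and 2162, 2092 and 2220 in treated cultures. The groups did not overlap, and the limma change was 0.506 (SE 0.0882, adjusted p = 0.00154). Transcripts of the 2 copies cannot be told apart at this probe set. A dimmer probe set shared by the same genes changed by 0.03 (adjusted p = 0.913).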

How the results depend on the processing

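With 24 members higher and 9 lower in the reported setting, the count of higher calls was 3 without scaling the arrays, and stayed within 1.5 times of 24 in the other settings, being 16 to 24 when any 1 array was left out. The count of lower calls was 2 without scaling, 15 with quantile normalization, 3 without the probe sets of the _s_at, _x_at and _a_at classes, which tested fewer genes, 5 without the intensity trend, and 4 to 8 when 1 array was left out. It was 4 without control culture 1, and 5 without treated culture 2 or 3. The fits that left out 1 array tested 76 members, lacking Ndufa4l2 or Cox7b2 as given above. Without scaling, 1088 of all genes were called higher, and the calls of Uqcrc1 and Uqcr11 held. The median of complex I moved to -0.088 without scaling. That of complex II was -0.051 without scaling, -0.031 with quantile normalization and 0.077 with the mean of a gene's probe sets. That of complex III was 0.144 without the _s_at, _x_at and _a_at classes. That of the ATP synthase was -0.036, -0.069 and 0.096 without scaling, with quantile normalization and without those classes, and ran from -0.016 to 0.057 when 1 array was left out. The medians of complexes III and IV together stayed between 0.177 and 0.295 in all settings. Without those classes Uqcrq was -0.19 (limma adjusted p = 0.443), Ndufb8 -0.15 (0.624) and Ndufc2 0.23 (0.0342). Deviations of same-numbered cultures correlated weakly, at 0.186, 0.172 and 0.072, each the highest for its number, against -0.149 to -0.0218 for unequal numbers. This is a hint of pairing from the data and not the design. With the replicate number as a block, 25 members were higher and 9 lower, of which 22 and 9 were called before. The cause of these differences was not tested. Without detection calls, signals near background were not separated from it.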

Other observations

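Another probe set left out for naming several genes, that of Ndufs6, an accessory subunit of complex I, and its copy Ndufs6b, gave 1261, 1079 and 1199 in controls and 886.1, 856.2 and 919.9 in treated cultures, a limma change of -0.405 (SE 0.0859, adjusted p = 0.00461). The strongest of the probe sets shared by Ndufb4 and its copies gave 1883, 1756 and 1626 against 2117, 1791 and 1962 and was not called, at 0.155 (adjusted p = 0.212). A probe set shared by Ndufs5 and its pseudogene changed by 0.29 (adjusted p = 0.0918).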
